A study of Mus musculus with 6 samples.

Results

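The laminin chains were studied as the 9 genes Lama1, Lama2, Lama3, Lama4, Lama5, Lamb1, Lamb2, Lamb3 and Lamc1, chosen by name from the 54146 gene rows of a table of transcript abundance in TPM, a unit scaled to a fixed total per library. Cells of D2A1, a mammary tumor line of the mouse, were cultured in three-dimensional Matrigel with 50 nM of recombinant SLURP1 (rSLURP1), a secreted protein of the Ly6/uPAR family, or with 50 nM of recombinant GST (rGST) as control. Each treatment was read out by RNAseq in 3 libraries. All 6 libraries come from this one cell line, and the labels name no genetic difference between the groups. The labels do not say whether the libraries of a group came from separate cultures, so the p-values measure only the spread between these libraries, which may be technical. The comparison asks which laminin subunits D2A1 cells expressed and how their mRNA differed between rSLURP1 and rGST.

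Laminins are large secreted proteins of the basement membrane, each assembled from an alpha, a beta and a gamma chain whose long helical arms wind into a coiled coil. A laminin is named by the numbers of its chains, so that laminin-511 is alpha 5, beta 1 and gamma 1. In the cell a beta and a gamma chain first pair and are retained until an alpha chain joins them, and the alpha chain carries the globular end that binds integrins and dystroglycan. In the mammary gland, laminins lie under the epithelium and help to set its polarity. Matrigel is itself an extract of a mouse tumor that is rich in laminin-111 protein, so the matrix around these cells held laminin that the cells did not make. The values here are of mRNA and say nothing of the protein in that matrix.

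TPM corrects reads for transcript length and scales every library to the same total, so levels can be compared between genes, whereas read depth and counting error are unknown. Genes were tested with limma, a linear model across all genes, on log2(TPM + 1) for the 12301 genes that reached 1 TPM in 3 or more libraries. The median log2 fold change of all tested genes, rSLURP1 against rGST, was -0.33, and 87.1% of the genes called were lower. After median-ratio scaling, which sets the typical gene to equal levels in all libraries, this median was -0.0012 and 49.2% of calls were lower, so the direction of a small change depends on the scaling. Log2 fold changes also went with transcript length (Spearman rho -0.25 across the tested genes, which are not independent replicates), and the laminin mRNAs are long. Values corrected for length and GC content are therefore given beside the deposited ones for the expressed laminin chains and for some of the other genes. Of 6 markers of mammary luminal cells, Krt18 reached a TPM of 191.1 to 199.4 in all 6 libraries. Krt8 was at 1.40 to 1.66 TPM with rGST and lower with rSLURP1, at 0.51 to 0.81 (limma adjusted p = 0.00968). Epcam and Esr1 were listed at 0, Cdh1 was at most 0.070 and Krt19 at most 0.49 TPM. Of 5 basal markers the keratins Krt5 and Krt14 were listed at 0 and Krt17 was at most 0.060 TPM, whereas Trp63 (3.67 to 4.36 TPM with rGST and 1.65 to 2.35 with rSLURP1, limma adjusted p = 0.00158) and Acta2 (2.75 to 4.61 and 0.37 to 0.85 TPM, limma adjusted p = 3.00e-04) were detected and fell. The 5 summed to 6.74 to 8.97 TPM with rGST and 2.23 to 2.85 with rSLURP1. The 6 mesenchymal markers summed to 1539 to 1700 TPM with rGST and 783.1 to 843.7 with rSLURP1, mostly from Vim at 1184 to 1340 and 640.3 to 698.5. Of the other 5, Twist1 was at 228.47 to 234.59 TPM with rGST and 105.65 to 117.53 with rSLURP1. Pdgfrb was at 103.31 to 113.19 and 17.89 to 21.04 TPM. Zeb1 was at 9.87 to 11.46 and 7.03 to 7.2 TPM, and Col1a1 at 7.48 to 9.66 and 0.26 to 0.42. Log2 fold changes of Twist1, Pdgfrb, Zeb1 and Col1a1 were -1.04, -2.40, -0.55 and -2.88, each with a limma adjusted p of 8.83e-04 or less. Cdh2 was at most 0.050 TPM. The part of these shifts in the laminin results was not tested. For 6 markers of macrophages and other leukocytes, the sum was 3.58 to 4.12 TPM with rGST and 7.75 to 10.6 with rSLURP1, all but a trace of it from Cd68, with the defining genes Ptprc at 0.010 or less and Adgre1 at 0. Of 6 markers of parietal endoderm, the cell type of the tumor that Matrigel is made from, 4 were listed at 0 in all libraries, and the sum, nearly all from Gata4, was 24.2 to 25.5 TPM with rGST and 20.6 to 21.3 with rSLURP1. In bulk RNA, fewer cells of a type and less RNA per cell cannot be told apart.

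The expressed laminin genes lie on separate mouse chromosomes. In GENCODE M21 (GRCm38, mm10), Lama5 (ENSMUSG00000015647.9) spans chromosome 2, 180176373 to 180225859, on the minus strand, and its longest transcript has 79 exons and 11388 bases. Lamb1 (ENSMUSG00000002900.16) spans chromosome 12, 31265234 to 31329644, on the plus strand, with 33 exons and 5784 bases. Lamb2 (ENSMUSG00000052911.9) spans a much shorter stretch of chromosome 9, 108479736 to 108490530, on the plus strand, also with 33 exons and with 5629 bases. Lamc1 (ENSMUSG00000026478.14) spans chromosome 1, 153218922 to 153332786, on the minus strand, with 28 exons and 7622 bases.

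RefSeq promoter windows of the GRCm38.p6 build were given for 5 of the 10 laminin genes analysed, and that of Lamc1 is not among them. The runs printed here come from the 250 bases before the RefSeq start site, read 5′ to 3′ on the gene's strand, and stop before any GENCODE M21 exon of the gene. That start site can differ from the M21 one. The Lama2 window lies inside the M21 gene, whose 5′ end is at 27619758, and the windows of Lamb1 and Lamb2 run past the M21 start into an exon. Lama5, Lamb1 and Lamb2 are shown because they are 3 of the expressed chains, and Lama2 because it was near 0. Lamb3, for which windows were also given, is not shown. Capitals mark the GC box GGGCGG, the usual site of SP and KLF factors, and CCCCACCC, the KLF4 motif that the study describes for Slurp1, each searched on both strands.
Lama5, minus strand, chr2:180225860-180226109, 250 bases: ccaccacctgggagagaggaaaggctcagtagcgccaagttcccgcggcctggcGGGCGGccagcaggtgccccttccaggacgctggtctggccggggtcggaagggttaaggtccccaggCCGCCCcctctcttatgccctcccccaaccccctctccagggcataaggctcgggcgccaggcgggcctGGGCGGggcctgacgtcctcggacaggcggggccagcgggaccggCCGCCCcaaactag
Lamb1, plus strand, chr12:31265043-31265233, 191 bases: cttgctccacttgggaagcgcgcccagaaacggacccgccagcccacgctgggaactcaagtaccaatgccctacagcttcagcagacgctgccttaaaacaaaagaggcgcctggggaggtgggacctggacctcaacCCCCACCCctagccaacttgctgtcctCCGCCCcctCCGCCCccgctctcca
Lamb2, plus strand, chr9:108479612-108479735, 124 bases: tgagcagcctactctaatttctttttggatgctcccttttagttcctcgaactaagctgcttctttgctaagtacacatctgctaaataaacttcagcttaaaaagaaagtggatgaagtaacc
Lama2, minus strand, chr10:27616943-27617192, 250 bases: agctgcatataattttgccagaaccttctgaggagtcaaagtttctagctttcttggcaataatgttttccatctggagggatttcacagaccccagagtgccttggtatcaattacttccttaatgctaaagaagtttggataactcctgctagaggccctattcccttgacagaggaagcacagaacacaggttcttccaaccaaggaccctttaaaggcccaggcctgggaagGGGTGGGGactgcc
Over the whole 250 bases, Lama5 held 4 GC boxes and Lamb1 held 2, and none was found for Lamb2 or Lama2. A GC box occurred in 32.7% of all 32851 promoter windows of this length. CCCCACCC, found in 9.05% of all windows, occurred in Lamb1, Lamb2 and Lama2 and not in Lama5, and the match of Lamb2 lies downstream of the printed run, 73 to 66 bases before the start site. Lama5 and Lamb1 had 19 and 14 CpG dinucleotides, against a median of 6 over all windows, while Lamb2 had 3 and Lama2 had 0. A RefSeq window rich in CpG was not shared by all expressed chains, and the windows of Lamb1 and Lamb2 include bases of M21 exons. A TATA box (TATAAA) and an AP-1 site (TGANTCA) were found in none of these 4 windows. These matches are letters in a window and not measured sites.

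Of the 9 laminin genes, 4 were expressed at a TPM of at least 1, in all 6 libraries in each case, and these were the only ones that passed the filter. They were 1 alpha chain (Lama5), 2 beta chains (Lamb1 and Lamb2) and 1 gamma chain (Lamc1). With rGST the order of levels was Lamb1, Lama5, Lamc1, Lamb2, and no neighbours in this order overlapped between libraries. With rSLURP1 the order was the same, but Lama5 and Lamb1 overlapped. Among the tested genes, ranked by mean TPM, Lamb1 stood at rank 417 with rGST and 506 with rSLURP1, Lama5 at 561 and 547, Lamc1 at 833 and 1429, and Lamb2 at 1873 and 2636. The expressed chains were thus well above the typical gene, and the 5 other members were all below 1 TPM.

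**Figure D1:**
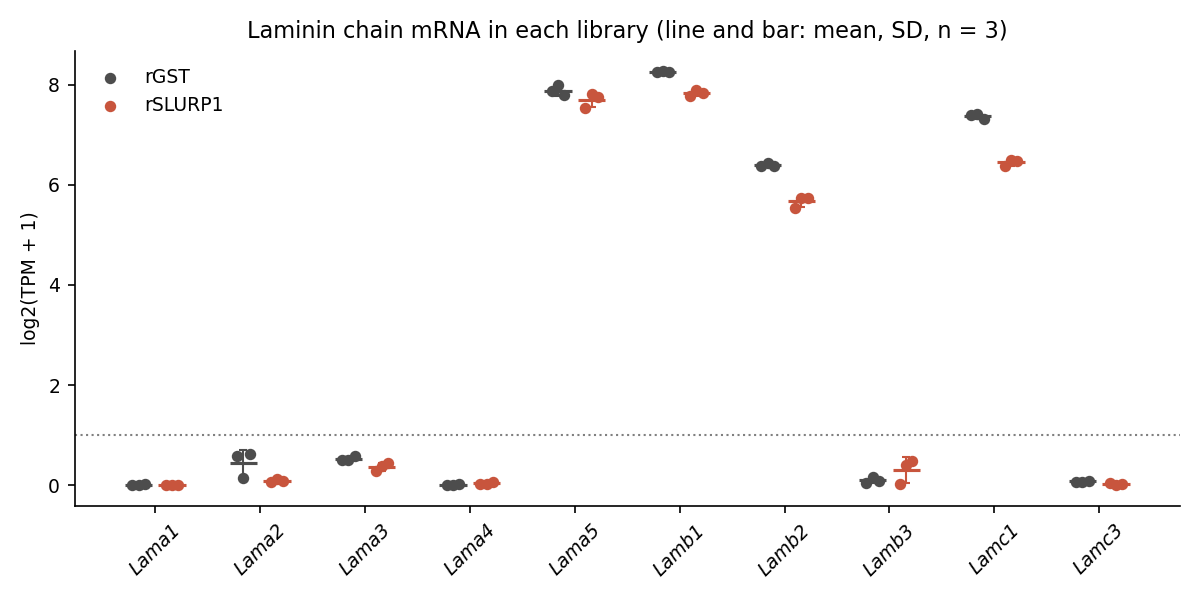
Level of each laminin chain as log2(TPM + 1) in the 3 rGST and 3 rSLURP1 libraries (points), with mean and SD, for the 9 members and Lamc3. The dotted line is a TPM of 1. Lama5, Lamb1, Lamb2 and Lamc1 stand far above it in every library, and the other chains lie below it.

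Lamc1 encodes the gamma 1 chain, which most laminins contain and which binds nidogen. It had a TPM of 168.1, 170.9 and 157.5 in the rGST libraries and 82.0, 89.7 and 88.0 in the rSLURP1 libraries. Every rSLURP1 library was well below every rGST library. The mean fell from 165.5 ± 7.04 to 86.6 ± 4.04 (SD, n = 3 each), a difference of -0.93 on the log2 scale (standard error, SE, 0.051, limma adjusted p = 6.69e-06). Relative to the median of all genes this was -0.60. Lamc1 stayed lower with median-ratio scaling (-0.58, limma adjusted p = 5.10e-05) and after the length and GC correction (-0.43, limma adjusted p = 1.80e-04).

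Lamb2 encodes beta 2, the chain of the kidney filter and the neuromuscular junction. It had a TPM of 82.7, 85.3 and 82.5 with rGST and 45.6, 52.6 and 52.1 with rSLURP1, again without overlap. The mean was 83.5 ± 1.57 against 50.1 ± 3.90 (SD, n = 3 each), which on the log2 scale is -0.73 (SE 0.062, limma adjusted p = 4.53e-05) and -0.40 against the typical gene. With median-ratio scaling Lamb2 was at -0.38 (limma adjusted p = 0.00102), and after the length and GC correction it was at -0.24 (limma adjusted p = 0.00631).

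Lamb1 encodes beta 1, the beta chain of laminin-111 and laminin-511. It had a TPM of 304.8, 306.8 and 304.3 with rGST and 218.5, 236.4 and 226.6 with rSLURP1. Its mean fell from 305.3 ± 1.34 to 227.1 ± 8.94 (SD, n = 3 each), or -0.43 on the log2 scale (SE 0.039, limma adjusted p = 6.32e-05). This was -0.10 relative to the median of all genes. The call did not hold with median-ratio scaling (-0.072, limma adjusted p = 0.0788), and after the length and GC correction the direction turned (0.084, limma adjusted p = 0.0424), so that a fall of Lamb1 depends on the scaling.

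Lama5 encodes alpha 5, the main alpha chain of adult epithelial basement membranes. It had a TPM of 233.6, 252.9 and 220.3 with rGST and 185.1, 223.4 and 215.9 with rSLURP1, and the groups overlapped. The means were 235.6 ± 16.4 and 208.1 ± 20.3 (SD, n = 3 each). Its log2 fold change of -0.18 did not pass the test (SE 0.080, 95% interval -0.37 to 0.0073, limma adjusted p = 0.0804), and without rSLURP1 library 2 it did (-0.23, limma adjusted p = 0.0494). Relative to the median of all genes Lama5 was at 0.15, with median-ratio scaling at 0.17 (limma adjusted p = 0.0864) and after the length and GC correction at 0.20 (limma adjusted p = 0.0586). The sign for Lama5 therefore follows the scaling, and neither sign passed the threshold with all 6 libraries.

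**Figure D2:**
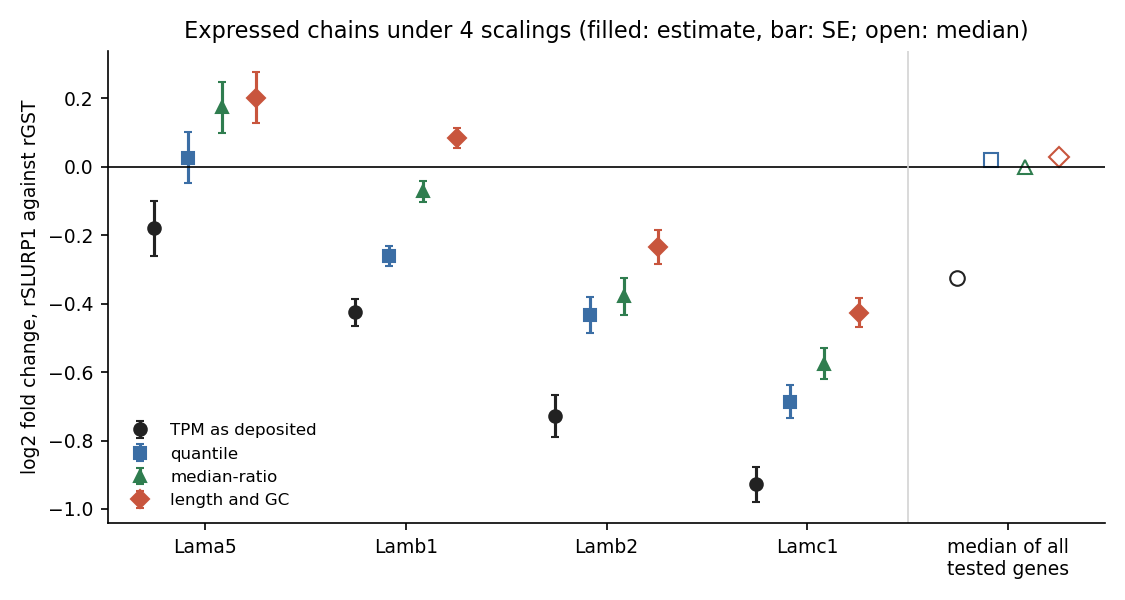
Log2 fold change of the 4 expressed chains, rSLURP1 against rGST, with its standard error (filled marks) under 4 scalings of the same libraries, and the median of all tested genes under each (open marks). Lamc1 and Lamb2 lie below 0 under all 4, Lamb1 lies on both sides, and Lama5 is below 0 as deposited only.

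Of the 4 tested chains, 3 were lower with rSLURP1 at the adjusted p-value of 0.05, where 58.5% of all tested genes were, and none was higher, where 8.66% were. With 4 chains such a count is not set apart from that of all genes. For 3 of the 4 the treatments did not overlap, all in the lower direction, against 61.7% of tested genes in that direction and 9.75% in the higher. With median-ratio scaling 2 of the 4 (Lamb2 and Lamc1) were lower and none higher, against 25.2% and 26.0% of all tested genes. After the length and GC correction the same 2 chains were lower, against 22.0%, and Lamb1 was higher, against 27.0%. None of the 4 also reached a fold change of 2, as 7.06% of tested genes did in the lower and 1.15% in the higher direction. Lamc1 came nearest, at 52.3% of its rGST mean.

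The other 5 members were at or near 0. Lama2, the alpha chain of muscle laminin, had 0.50, 0.11 and 0.53 TPM with rGST and 0.04, 0.09 and 0.06 with rSLURP1. Lama3, the alpha chain of skin laminin, had 0.41, 0.42 and 0.49 TPM with rGST and 0.21, 0.30 and 0.35 with rSLURP1. Neither gene overlapped between groups, which held in the lower direction for 8.81% of the genes that were above 0 but did not pass the filter. In a fit without the filter their log2 fold changes were -0.36 for Lama2 (limma adjusted p = 0.0881) and -0.16 for Lama3 (limma adjusted p = 0.101), so neither passed the test. In that fit 29.5% of genes were called lower and 4.2% higher, and none of the 5 was called. Lama1, the alpha chain of early embryos and of the Matrigel tumor, was listed at 0 in 5 libraries and at 0.020 TPM in rGST library 3. Lama4, the alpha chain of blood vessels and mesenchyme, was at most 0.040 TPM in any library. Lamb3, the beta chain of skin laminin, had 0.030, 0.120 and 0.060 TPM with rGST and 0.010, 0.330 and 0.400 with rSLURP1, so that its rSLURP1 libraries lay on both sides of the rGST ones. Read depth is unknown, and differences at such levels cannot be set against counting error.

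Lamc3, a gamma chain found in nerve and brain, was measured beside the 9 members and was at 0.060 TPM or less throughout.

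Summed by class, the alpha chains came to 236.4 ± 16.2 TPM with rGST and 208.5 ± 20.4 with rSLURP1, the beta chains to 388.8 ± 2.94 and 277.5 ± 12.6, and the gamma chains Lamc1 and Lamc3 to 165.6 ± 7.04 and 86.6 ± 4.03 (SD, n = 3 each). The rSLURP1 mean was 88.2% of the rGST mean for alpha, 71.4% for beta and 52.3% for Lamc1 and Lamc3. The sum of Lamc1 and Lamc3 was the lowest of the 3 in every library. Lama5 made up 99.5% to 99.8% of alpha TPM with rGST and 99.8% to 99.9% with rSLURP1. Lamb1 made up 78.7%, 78.2% and 78.7% of beta TPM with rGST and 82.7%, 81.7% and 81.2% with rSLURP1. Its share was higher by 3.36 percentage points, from 78.5% ± 0.253 to 81.9% ± 0.784 (SD, n = 3 each, two-sided exact permutation p = 0.1, adjusted p = 0.2 over 10 shares). With 3 libraries against 3 this test cannot give a p-value below 0.1. A share within a library does not depend on how that library is scaled.

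**Figure D3:**
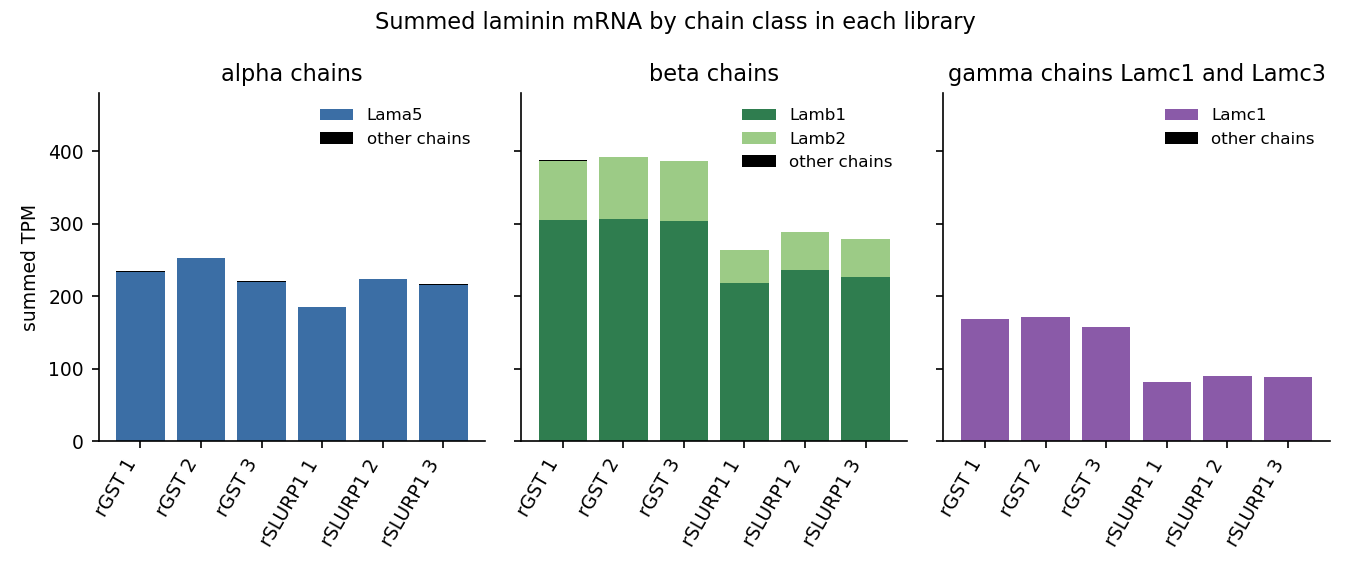
Summed TPM of the alpha chains, the beta chains and the gamma chains Lamc1 and Lamc3 in each of the 6 libraries, stacked by chain. The black layer, the other chains summed in that panel, is at most a hairline, the beta bars are the tallest in every library, and the gamma bars are shorter with rSLURP1.

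Ratios between the expressed chains, which also do not depend on the scaling of a library, were computed for all 6 pairs after the values had been seen. The ratio of Lama5 to Lamc1 was 1.39, 1.48 and 1.40 in the rGST libraries and 2.26, 2.49 and 2.45 in the rSLURP1 libraries. The difference was 0.75 on the log2 scale, and the groups were far apart. The ratio of Lamb1 to Lamc1 was 1.81, 1.80 and 1.93 with rGST and 2.66, 2.64 and 2.57 with rSLURP1 (0.51 on the log2 scale). Lama5 to Lamb2 went from a mean of 2.82 ± 0.147 to 4.15 ± 0.0953, and Lamb1 to Lamb2 from 3.66 ± 0.0526 to 4.55 ± 0.226 (SD, n = 3 each). Differences were smaller for Lama5 to Lamb1 (0.25 on the log2 scale) and Lamb2 to Lamc1 (0.20). All 6 ratios were higher with rSLURP1, with no overlap between the treatments. The two-sided exact permutation p was 0.1 for each, the smallest the design allows, and 0.1 after adjustment over the 6 pairs. The 6 pairs are built from the 4 expressed chains and are not independent. In each pair the chain with the higher log2 fold change stands first, so the common direction restates the order of those fold changes. How often other gene pairs separate in this way was not computed. After the length and GC correction the differences were 0.63 for Lama5 to Lamc1, 0.44 for Lama5 to Lamb2 and 0.12 for Lama5 to Lamb1. The log2 fold changes ran in the order Lama5, Lamb1, Lamb2, Lamc1, from the highest to the lowest, as deposited and after the length and GC correction. Quantile normalization gave the same order. Median-ratio scaling applies a single factor to all genes of a library, so it could hardly change this order and does not test it.

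**Figure D4:**
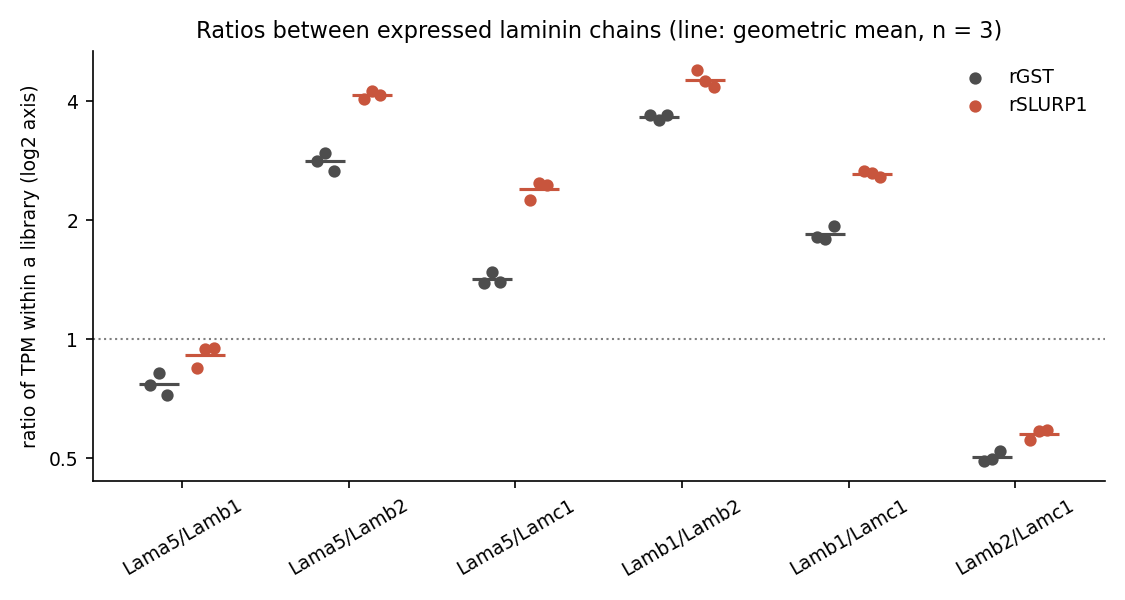
Ratio of TPM between each pair of expressed laminin chains within a library (log2 axis) for the 3 rGST and 3 rSLURP1 libraries, with the geometric mean as a line. The 2 treatments do not overlap for any pair, and the largest gap is that of Lama5 to Lamc1.

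The chains were then set against 13 of the known mouse laminins, to see which trimers the mRNAs could supply. For 2 of these, laminin-511 (alpha 5, beta 1, gamma 1) and laminin-521 (alpha 5, beta 2, gamma 1), all 3 chains were at 1 TPM or more in every library. The scarcest chain of laminin-511 was Lamc1, at 157.5 to 170.9 TPM with rGST and 82.0 to 89.7 with rSLURP1, and the scarcest chain of laminin-521 was Lamb2, at 82.5 to 85.3 and 45.6 to 52.6 TPM. With rSLURP1 the mRNA of the scarcest chain was at 52.3% of its rGST mean for laminin-511 and at 60% for laminin-521, as deposited. The log2 fold changes of these mRNAs, Lamc1 and Lamb2, were -0.58 and -0.38 with median-ratio scaling. After the length and GC correction they were -0.43 and -0.24. Both trimers draw on the same Lama5 and Lamc1 mRNA, so the levels given for the 2 trimers cannot be added. For the others of these 13 at least 1 chain was missing. Laminin-111, laminin-121, laminin-211, laminin-221, laminin-311, laminin-321, laminin-411 and laminin-421 lacked their alpha chain, and laminin-523 lacked Lamc3. Laminin-213 and laminin-423 lacked both their alpha chain and Lamc3. A missing chain here means an mRNA below 1 TPM in at least 1 library, and assembly or secretion was not measured.

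Laminin receptors did not move in 1 direction. Of 12 listed receptor genes 9 were tested, and 4 were lower and 1 higher with rSLURP1 as deposited, against 58.5% and 8.66% of all tested genes. With median-ratio scaling 3 were lower and 5 higher, against 25.2% and 26.0%. The 9 had a median log2 fold change of -0.056, or 0.27 against all genes. Itga3 and Itgb1 encode the subunits of integrin alpha 3 beta 1, which binds laminin-511. Itga3 fell from 267.5 ± 12.3 to 142.0 ± 7.59 TPM (log2 fold change -0.91, limma adjusted p = 8.73e-06), and stayed lower with median-ratio scaling (-0.56) and after the length and GC correction (-0.42). Itgb1 was at -0.48 as deposited, at -0.13 with median-ratio scaling and at -0.093 after the length and GC correction. Itga6, which pairs with Itgb1 to form the main laminin receptor of many epithelia, had 29.1 ± 1.49 TPM with rGST and 31.2 ± 1.03 with rSLURP1 (log2 fold change 0.095, limma adjusted p = 0.191), and with median-ratio scaling it was higher (0.44, limma adjusted p = 6.77e-04). Itgb4, its partner in hemidesmosomes, was at most 0.680 TPM. Dag1, which encodes dystroglycan, fell from 92.4 ± 2.70 to 54.6 ± 2.70 TPM (log2 fold change -0.75, limma adjusted p = 1.64e-05). Dag1 stayed lower with median-ratio scaling at -0.40 and after the length and GC correction at -0.24. Itga7, an integrin subunit of muscle that binds laminin, was the one gene called higher, from 3.42 ± 0.658 to 7.55 ± 0.165 TPM (log2 fold change 0.96, limma adjusted p = 4.16e-04). Itga1, a receptor for collagen as well as laminin, was at -0.39 (limma adjusted p = 0.0227), and this call was lost on leaving out rGST library 1 or 3 or rSLURP1 library 1 or 3, with adjusted p-values of 0.0545 to 0.0748 in limma. After the length and GC correction Itga1 was at 0.020.

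Of 19 genes for other basement membrane proteins 13 were tested, and 9 were lower and 2 higher with rSLURP1, where 58.5% and 8.66% of all tested genes were. Their median log2 fold change was -0.60 (-0.28 relative to all genes). With median-ratio scaling 8 were lower and 4 higher, where 25.2% and 26.0% of all tested genes were. Hspg2, which encodes the proteoglycan perlecan, had 97.0, 100.9 and 91.3 TPM with rGST and 49.0, 49.3 and 52.7 with rSLURP1. Its log2 fold change of -0.92 (limma adjusted p = 8.73e-06) was close to that of Lamc1. Agrn, which encodes agrin, a proteoglycan that links laminin to dystroglycan, was at -0.59 as deposited and at -0.12 (limma adjusted p = 0.0597) after the length and GC correction. The lowest values were those of Col4a5 (-1.39), Col4a6 (-1.38), Fbln2 (-1.30) and Col7a1 (-1.0), which encode 2 chains of collagen IV, fibulin 2 and the collagen of anchoring fibrils. Col4a1, a chain of the most widespread collagen IV, rose instead from 124.8 ± 0.988 to 151.8 ± 8.77 TPM (SD, n = 3 each, log2 fold change 0.28, limma adjusted p = 0.00157). Npnt, which encodes nephronectin, an integrin ligand, was also higher (0.52, limma adjusted p = 0.00291). Col4a2, another collagen IV chain, did not rise as deposited, with 187.5 ± 4.37 TPM with rGST and 177.0 ± 7.01 with rSLURP1. Its log2 fold change was -0.083 (limma adjusted p = 0.118), and with median-ratio scaling it was 0.27 (limma adjusted p = 4.99e-04). Col4a5, Col4a6, Fbln2, Col7a1, Col4a1 and Npnt kept their direction and call with median-ratio scaling and after the length and GC correction. The nidogens, which join laminin gamma 1 to collagen IV, were scarce, with Nid1 at 0.450 to 0.670 TPM with rGST and 0.120 to 0.170 with rSLURP1 and Nid2 at 0.120 TPM or less with rGST and listed at 0 with rSLURP1. Neither nidogen gene passed the filter. In the fit without it Nid1 was at -0.43 (limma adjusted p = 0.00434) and Nid2 at -0.13 (limma adjusted p = 0.0130), where 29.5% of genes were called lower. Differences at such levels cannot be set against counting error. Hspg2, Agrn, Col4a2 and the nidogens were chosen to be named after their values were seen.

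**Figure D5:**
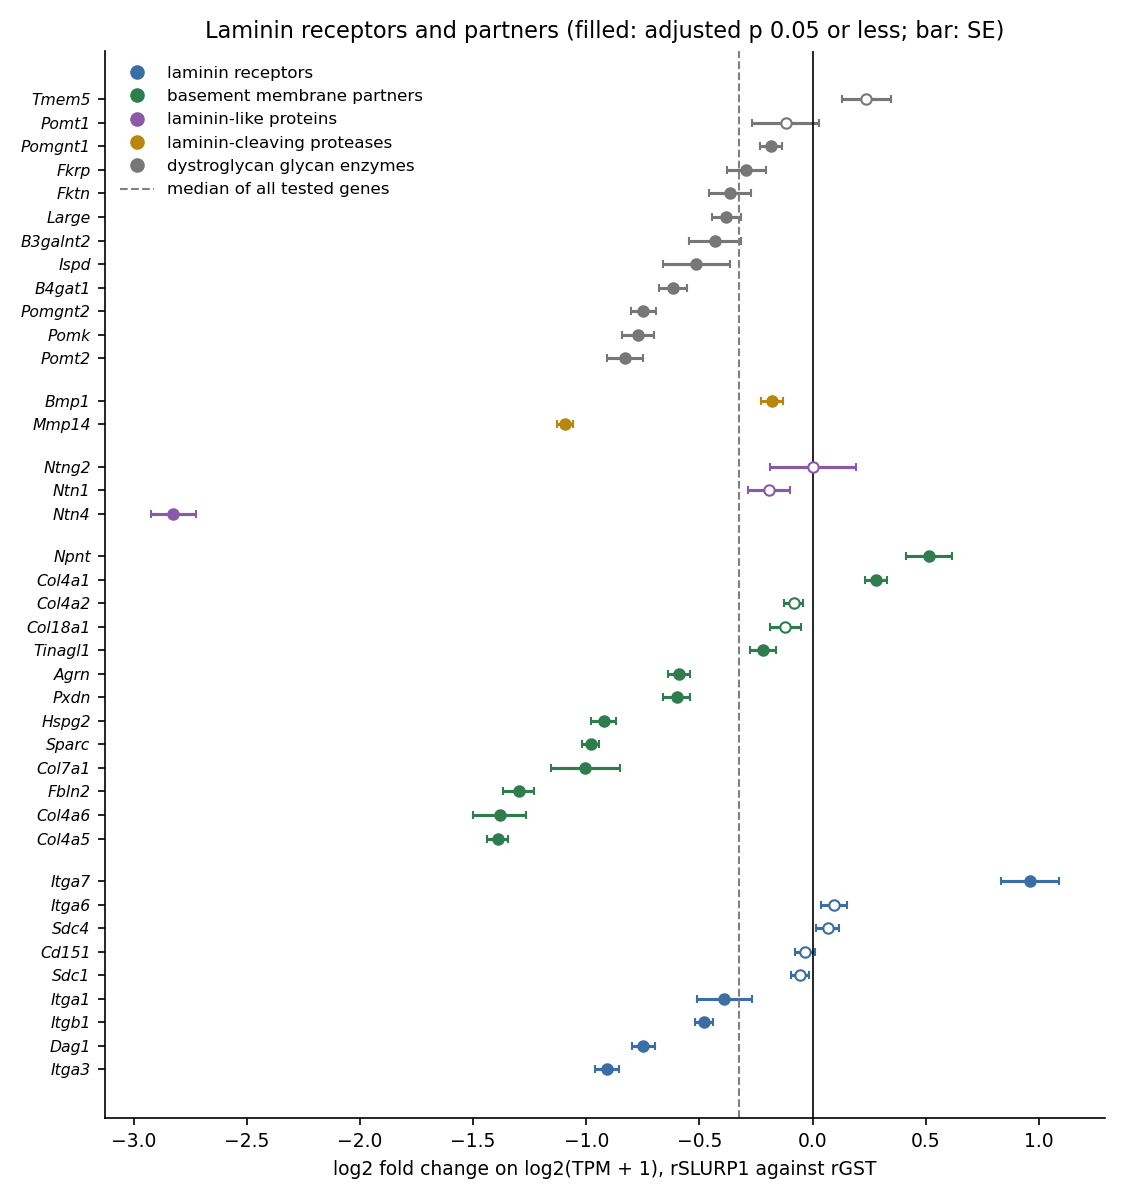
Log2 fold change on log2(TPM + 1), rSLURP1 against rGST, with its standard error, for the tested genes of 5 lists of laminin receptors and partners. Filled points passed an adjusted p-value of 0.05, and the dashed line is the median of all tested genes at -0.33. Points lie on both sides of that line in each list, and Ntn4 stands apart at -2.82.

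Ntn4 encodes netrin 4, a laminin-like protein that binds the gamma 1 chain and opens laminin networks. It had 15.2, 16.2 and 15.7 TPM with rGST and 1.2, 1.3 and 1.57 with rSLURP1, and was the gene of these lists with the largest fall (-2.82 on the log2 scale, SE 0.10, limma adjusted p = 9.18e-07). It stayed at -2.55 with median-ratio scaling. Of 7 laminin-like genes measured, 3 were tested. As deposited Ntn4 was the only one called, where 58.5% of all tested genes were lower and 8.66% higher. After the length and GC correction 1 of the 3 was lower and 1 higher, where 22.0% and 27.0% of all tested genes were. Among 6 proteases that cleave laminin chains, 2 were tested, and both were lower as deposited, where 58.5% of all tested genes were. With median-ratio scaling 1 was lower and 1 higher, where 25.2% and 26.0% of all tested genes were. Mmp14, a membrane-bound matrix metalloproteinase, fell from 440.7 ± 8.47 to 205.7 ± 4.38 TPM (log2 fold change -1.10, limma adjusted p = 5.72e-07), and was at -0.74 with median-ratio scaling. Bmp1, a tolloid protease, was lower as deposited (-0.18) and higher with median-ratio scaling (0.17) and after the length and GC correction (0.33).

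Dystroglycan binds laminin through a sugar chain that a set of enzymes builds. All 12 listed enzyme genes were tested, and 10 were lower and none higher as deposited, beside 58.5% and 8.66% of all tested genes. Their median was -0.41 (-0.080 against all genes). With median-ratio scaling 4 were lower and 2 higher, beside 25.2% and 26.0%. The 4 that stayed lower were Pomt2 (-0.83 as deposited), Pomk (-0.77), Pomgnt2 (-0.75) and B4gat1 (-0.62), and they were also the 4 with the largest falls as deposited. Pomt2 adds the first mannose, Pomgnt2 extends it, Pomk phosphorylates it, and B4gat1 primes the chain that Large elongates. Pomt2 fell from 13.5 ± 0.486 to 7.19 ± 0.415 TPM and Pomk from 20.7 ± 1.07 to 11.7 ± 0.515 (SD, n = 3 each). Large was at -0.38 as deposited (limma adjusted p = 0.00143) and at -0.041 with median-ratio scaling (limma adjusted p = 0.569).

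The genes outside these lists whose pattern over the 6 libraries was most like that of Lamc1, by the root mean square distance of log2(TPM + 1) after centering each gene on its own mean, were Clk4, Cuedc1, Suv420h1, Trim24 and Nisch. Their distances were 0.017 to 0.026 on the log2 scale, and their log2 fold changes of -0.95 to -0.90 were close to that of Lamc1. Both treatments have 3 libraries, so this likeness rests mainly on a fold change of like size.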

How the data were processed

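RNAseq of D2A1 cells in Matrigel was analysed in 6 libraries, 3 per treatment, grouped by sample title. The authors deposited gene-level TPM from RSEM, 1 column per library, after adapter trimming (Cutadapt 1.18) and STAR alignment (2.5.2b) to mm10. The submitters' processing notes give RSEM 1.3.3, and the paper's methods give another release and GENCODE M12. For library preparation a TruSeq mRNA kit is named in the labels and Smart-seq2 in the paper's methods, and which applies is not settled here. TPM keeps no read depth, so precision rests on the replicate libraries, whose log2(TPM + 1) correlated at 0.983 to 0.986 within a treatment.

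Log2(TPM + 1) of the 12301 genes that reached 1 TPM in 3 or more libraries was fitted with limma (3.58.1, R 4.3.3; eBayes with trend) without a block, with Benjamini-Hochberg adjustment over all genes tested. Calls needed an adjusted p-value of 0.05. Shares and ratios were tested with two-sided exact permutation tests (scipy 1.17.1). Alternatives changed the scaling (median-ratio, quantile, or TPM rescaled without mitochondrial genes), the filter (none, or 1 TPM in all 6 libraries) or the pseudocount (0.1). Others were a loess correction (span 0.3) for transcript length and GC content of the longest GENCODE M21 transcript, a block for replicate number, eBayes with no trend, and omission of each library in turn. Genes of the lists were matched by symbol, and Ntn3 had no match. Some results are not reported here. The members, the lists and the alternatives were chosen with earlier results of these data known. The genes named were the laminin chains analysed, up to 4 genes called per direction and list, the main receptor subunits, and the 5 genes most like Lamc1. Of the partner genes, Hspg2, Agrn, Col4a2, the nidogens and Large were named outside this rule. Figures were drawn with matplotlib (3.10.9).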

Additional observations from a re-analysis of the deposited data

How the results depend on the processing

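Under the alternatives run, Lamc1 and Lamb2 stayed lower and called in each, with log2 fold changes of -0.96 to -0.43 and -0.76 to -0.24. The number of laminin chains called lower was 0 in place of 3 when a fold change of 2 was also required, and 3 to 4 with libraries left out one at a time, where the number called higher was 0. After the length and GC correction 1 chain, Lamb1, was called higher. Lama5 turned to 0.17 with median-ratio scaling, to 0.025 under quantile normalization and to 0.20 once corrected for length and GC (the same with the block). Lamb1 turned to 0.084 and Itga1 to 0.020 after that correction, also with the block. Bmp1 turned to 0.17, 0.12 and 0.33 under the same 3 settings, the last also with the block. These settings move the median of all tested genes from -0.33 to -0.0012, 0.020 and 0.029, and the genes called lower from 7200 to 3094, 2905 and 2701 (49.2%, 48.3% and 44.9% of calls in place of 87.1%). With libraries left out one at a time, the share of Lama5 in its class differed by 0.12 to 0.26 percentage points, that of Lamb1 by 2.93 to 3.70, that of Lamb2 by -3.74 to -3.04 and that of Lamc1 beside Lamc3 by 0.0084 to 0.027. The last differed by 0 with the 9 members alone, since Lamc3 is then left out.

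No shared effect of the replicate number was seen. The departures of equally numbered libraries from the mean of their treatment correlated at -0.056, -0.034 and -0.061 across genes. Those of unequally numbered libraries correlated at 0.0075 to 0.048. Such values near 0 cannot settle whether the libraries were paired by culture. With the replicate number as a block, 3 chains were lower and 0 higher, Lama5 was at -0.18 (limma adjusted p = 0.0549), and no laminin call changed, while the call of Itga1 was lost (limma adjusted p = 0.0538). Once the values were also corrected for length and GC, the block ended the call of Lamb1 as higher (limma adjusted p = 0.0824) and that of Itgb1 as lower (-0.093, limma adjusted p = 0.0545). The unknown read depth limits what can be said of the chains below 1 TPM. Transcript length, GC content and scaling moved with these results, and their part was not tested beyond the settings named.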
